A study of Mus musculus with 2 samples.

Results

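Cultured aortic vascular smooth muscle cells (VSMCs) from old and young mice were compared over all genes in 1 droplet single-cell library. Old cells were the 497 cells that carried hashtag 2 alone and young cells the 3144 that carried hashtag 1 alone, out of 13045 cells in the library. Both were primary VSMCs from the aorta of C57BL/6 mice, young animals at 12 weeks and old animals at 58 to 78 weeks, and neither group had an added agent named in its label. The other cultures in the pool were young VSMCs given Angiotensin II (AngII) for 48 h (tag 3, 1500 cells) and old VSMCs transfected with Piezo1 siRNA at 20 nM (tag 4, 1529 cells). The labels also name a non-targeting siRNA pool without saying which cultures received it. Primary cells came from more than one supplier, each with its own culture medium, and the sources used here do not say which lots entered the pool, so supplier, medium and animal cannot be told apart from age.

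Barcodes counted as cells from 2218 gene UMIs (unique molecular identifiers, 1 per captured RNA molecule) and 200 genes upward. A cell belonged to a tag where only that tag's count was above its cutoff, which was 36 UMIs for tag 1 and 52 for tag 2. Group names follow the numbers beside the cultures in the study's schematic, which does not say that these are tag numbers, so the tag is kept beside each name. Each group was 1 culture. No test between groups could therefore be made, cells are not replicates, and every value below describes these 2 cultures. Expression is given as a gene's UMIs summed over a tag's cells per 1000000 of all their gene UMIs (CPM). Ratios are old (tag 2) over young (tag 1) and carry exact 95% intervals that cover counting error only, not the spread between cultures.

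VSMCs of the healthy aortic wall are contractile cells rich in smooth muscle actin and its partners. In culture, after injury and with age they can lose this program and take on a synthetic or inflammatory one, with secretion of matrix, proteases and cytokines. The type I interferon response is a separate program that most cells can mount: signalling from the interferon receptor switches on a large set of antiviral genes and of genes for antigen presentation.

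The 2 tags differed in more than the label. The median cell held 6816.5 gene UMIs and 2610 genes in tag 1 and 10663 gene UMIs and 3439 genes in tag 2, from 24120561 and 5577355 UMIs in all. Tag 1 was well separated, with a median of 364 tag 1 UMIs in its own cells against 10 in untagged cells, whereas tag 2 was at 76 against 15. When the tag had to be 3 times the next one, 84.3% of tag 1 cells and 36.02% of tag 2 cells remained. Cells with Y-linked and no Xist UMIs were 54.1% of young (tag 1) and 19.5% of old (tag 2) cells, and cells with Xist and no Y-linked UMIs were 4.90% and 63.0%. The 2 pools of cells thus differed in sex transcripts as well as in age. Many values are also given within those classes (1700 and 97 cells with only Y-linked UMIs, 154 and 313 with only Xist). A value without a class is over all cells and can differ within the classes. Scrublet called 23.3% and 21.7% of the cells doublets, and these were kept unless stated.

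The label was checked against marker genes. Of 9 smooth muscle markers, 8 reached 10 CPM in at least one tag, and their summed level was 1321 CPM in young (tag 1) and 2142 CPM in old (tag 2) cells. Myh11, the smooth muscle myosin heavy chain of mature contractile cells, stayed under 10 CPM in both. None of the endothelial, macrophage, lymphocyte or red blood cell markers reached 10 CPM, with sums of 9.12 and 6.45 CPM for the endothelial and 11.5 and 7.35 CPM for the macrophage list. Single markers of other lists did so: Fabp4, an adipocyte marker, was at 272 CPM in young and 148 CPM in old cells, and the epithelial Upk1b and Perp, the neural S100b and the pericyte Rgs5 were at 13.8, 15.6, 12.4 and 10.2 CPM in old and 4.97, 8.996, 3.61 and 4.19 CPM in young cells. Their part in the results was not tested. Fibroblast markers, which cultured VSMCs share in part, summed to 1631 CPM in young and 961 CPM in old cells. That list was split. Dcn (448 and 506 CPM), Lum and Cd34 were higher in old cells, and the other members lower, among them Col1a1 (541 and 219 CPM) and Col3a1 (341 and 54.3 CPM). Of the higher members only Dcn was abundant. Lum had 34 and 13 UMIs and stayed under 10 CPM in both. Cd34 was at 4.10 and 10.0 CPM, with a ratio of 0.913 (0.505 to 1.71) among cells with only Xist.

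Of 8840 genes at 10 CPM or more in either tag, 299 (3.38%) were at least 2-fold higher and 512 (5.79%) at least 2-fold lower in old (tag 2) than in young (tag 1) cells. At a 1.5-fold limit the counts were 799 (9.04%) and 996 (11.3%), and these are the shares against which the gene lists below are read. The median gene had a log2 ratio of 0.03. Of 3607 genes at 50 CPM or more, 105 (2.91%) were at least 2-fold higher and 244 (6.76%) lower. Among cells with Xist and no Y-linked UMIs, 85 of 8916 genes (0.953%) were at least 2-fold higher and 281 (3.15%) lower. Of these, 33 and 226 were among those of all cells. Among cells with only Y-linked UMIs, 456 of 8927 genes (5.11%) were higher and 713 (7.99%) lower, of which 251 and 466 were among those of all cells. That class held 97 old cells, so counting error weighs more in its counts. With an assumed 3.5% of UMIs subtracted as free RNA, in the proportions of near-empty barcodes, the counts over all cells were 320 (3.62%) and 532 (6.02%). A background for low shares of cells was not measured.

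**Figure D1:**
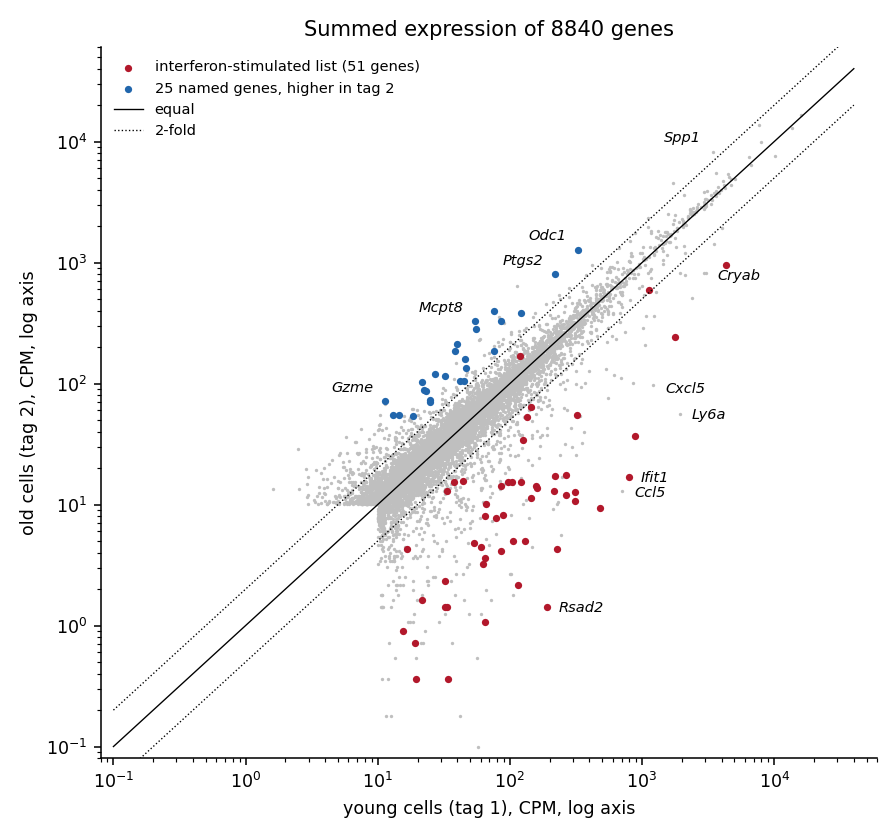
CPM of each of 8840 genes in young (tag 1, x axis) and old (tag 2, y axis) cells, both on log axes, with the interferon-stimulated list in red and the 25 named genes that were higher in tag 2 in blue. Of the 51 red genes 50 lie at least 1.5-fold below the line of equality, while the blue genes lie 2.33 to 6.26-fold above it; Ifi206, with no UMI in tag 2, is drawn at the lower edge.

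Antiviral genes were among those furthest below equality. Many such genes carry an interferon-stimulated response element (ISRE) near their start, whose core is GAAA, any pair of bases, then GAAA, on either strand. In promoters of 250 bases before to 50 bases after the RefSeq start (GRCm38.p6), the core was found for 23 of the 41 interferon-stimulated genes with a promoter entry (56.1%) and for 10 of the 17 named lower genes with one (58.8%), against 3.99% of 27025 genes. It was found for 1 of 16 named higher genes, Ptgs2os2, and for 1 of 14 contractile genes. The interferon-stimulated and named lower groups overlap, and Rsad2, Isg15, Ifit1, Ifit3, Ifit3b, Cxcl10 and Slfn5 were counted in both. A match is a description of these letters and not of binding. The stretches below belong to 8 of those 10 named lower genes and are shown because the interferon response held the widest differences of the lists; capitals mark the core, which reads TTTC, a pair of bases, TTTC where it lies on the other strand.
Rsad2 (chr12:26456543-26456592, minus strand): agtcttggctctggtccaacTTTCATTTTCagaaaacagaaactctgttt
Isg15 (chr4:156200855-156200916, minus strand): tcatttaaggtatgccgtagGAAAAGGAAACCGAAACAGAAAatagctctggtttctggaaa
Ifit1 (chr19:34640765-34640833, plus strand): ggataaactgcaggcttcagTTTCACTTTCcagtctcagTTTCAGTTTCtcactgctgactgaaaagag
Ifit3 (chr19:34583353-34583436, plus strand): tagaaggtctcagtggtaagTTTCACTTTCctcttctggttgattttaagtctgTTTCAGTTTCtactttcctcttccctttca
Cxcl10 (chr5:92349073-92349122, minus strand): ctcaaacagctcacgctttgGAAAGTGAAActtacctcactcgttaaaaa
Slfn5 (chr11:82951927-82951976, plus strand): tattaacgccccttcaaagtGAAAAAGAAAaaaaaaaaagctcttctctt
Phf11b (chr14:59341351-59341400, minus strand): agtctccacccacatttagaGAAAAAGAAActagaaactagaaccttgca
Ifi206 (chr1:173491329-173491378, minus strand): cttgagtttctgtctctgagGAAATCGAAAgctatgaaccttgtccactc
The cores began between 40 and 213 bases before the start. Isg15 held 3 overlapping cores between 66 and 78 bases before it, and Ifit1 and Ifit3 held 2 each.

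Old (tag 2) cells held far less RNA of the interferon response than young (tag 1) cells. Of 51 interferon-stimulated genes at 10 CPM, 50 were at least 1.5-fold lower and none was 1.5-fold higher, against 11.3% and 9.04% of all genes, with a median log2 ratio of -3.73. The median was -3.88 among cells with only Y-linked UMIs and -2.45 among those with only Xist. Their summed level was 14530.0 CPM in young and 2543 CPM in old cells. The exception was Ifi27, at 120.1 CPM in young (tag 1) and 169 CPM in old (tag 2) cells, a ratio of 1.41 (1.31 to 1.52). Among cells with only Xist its ratio was 1.06 (0.905 to 1.24), an interval that includes 1.

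Rsad2, which encodes the antiviral enzyme viperin (ENSMUSG00000020641, chromosome 12, 26442746 to 26456452, minus strand), was at 191 CPM (185 to 196) in young (tag 1) and 1.43 CPM (0.619 to 2.83) in old (tag 2) cells, 133-fold (67.4 to 308) lower. Ifit1, whose product binds foreign RNA caps, was at 789 CPM (778 to 800.5) and 17.0 CPM (13.8 to 20.8), 46.3-fold (37.9 to 57.3) lower. Thinned to 5000 UMIs per cell, Ifit1 had a UMI in 84.6% of young and 6.72% of old cells (88.9% and 12.3% unthinned). Its near relative Ifit3 was at 484 CPM in young (tag 1) and 9.32 CPM in old (tag 2) cells, and Ifit3b at 116 and 2.15 CPM; how reads divide between these similar genes is uncertain. Isg15, a ubiquitin-like modifier, was at 889.7 CPM (878 to 902) and 36.9 CPM (32.1 to 42.3), 24.1-fold (21.0 to 27.8) lower. With only Y-linked UMIs the ratios of Rsad2, Ifit1 and Isg15 were 0.00391, 0.0229 and 0.0415. With only Xist they were nearer to 1, at 0.0209, 0.0506 and 0.108. Slfn5 had 1558 of the 24120561 UMIs of young and 6 of the 5577355 UMIs of old cells. It had a UMI in 24.6% of thinned young and 1.05% of thinned old cells.

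Irf7, the factor that amplifies interferon production, was at 265 CPM in young (tag 1) and 12.0 CPM in old (tag 2) cells, 22.03-fold (17.3 to 28.5) lower. The receptor chains differed by less than 1.5-fold: Ifnar1 was at 26.7 and 27.4 CPM, a ratio of 1.03 (0.854 to 1.23), and Ifnar2 at 167 and 119 CPM, a ratio of 0.711 (0.654 to 0.772). Membrane-bound restriction factors differed less than the IFIT genes, with Ifitm3 at 4343 and 959 CPM (4.53-fold lower) and Bst2 at 1785 and 241 CPM (7.40-fold lower). Ifi206, of the interferon-inducible Ifi200 family, had 1393 UMIs in young and none in old cells; set against a floor of 3 UMIs over tag 2 it was at least 107-fold lower. Its neighbours Ifi204 and Mndal were 22.2- and 23.3-fold lower. The PHF11 family members Phf11b and Phf11d stood at 56.8 and 245 CPM in young and 0.538 and 5.56 CPM in old cells, and Sp100, a nuclear body protein, at 106 and 1.79 CPM.

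Per cell, at 5000 UMIs each, the list gave a median of 76 UMIs in 2397 young (tag 1) cells, with 10th and 90th percentiles of 34 and 112, and a median of 11 in 476 old (tag 2) cells, with percentiles of 5 and 24. Over all cells the 10th to 90th percentile ranges of the groups did not overlap. Of the old cells 12 (2.52%) reached the 10th percentile of the young, and 134 young cells (5.59%) lay at or below the 90th percentile of the old. Among cells with only Y-linked UMIs the medians were 80 in 1414 young and 10 in 97 old cells. Among those with only Xist they were 32 in 143 young and 11 in 298 old cells. In this class the 10th to 90th percentile ranges did overlap, at 9 to 62.8 UMIs in young and 5 to 23 in old cells. The young cells of this class thus lay between the other young cells and the old ones. The cause was not tested, and sex cannot be told apart here from cells of another culture that carry tag 1. The other 2 cultures were at medians of 20 (AngII-treated young, tag 3) and 13 (the cells labelled siPiezo1, tag 4), so that young (tag 1) cells alone stood high among the 4.

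**Figure D2:**
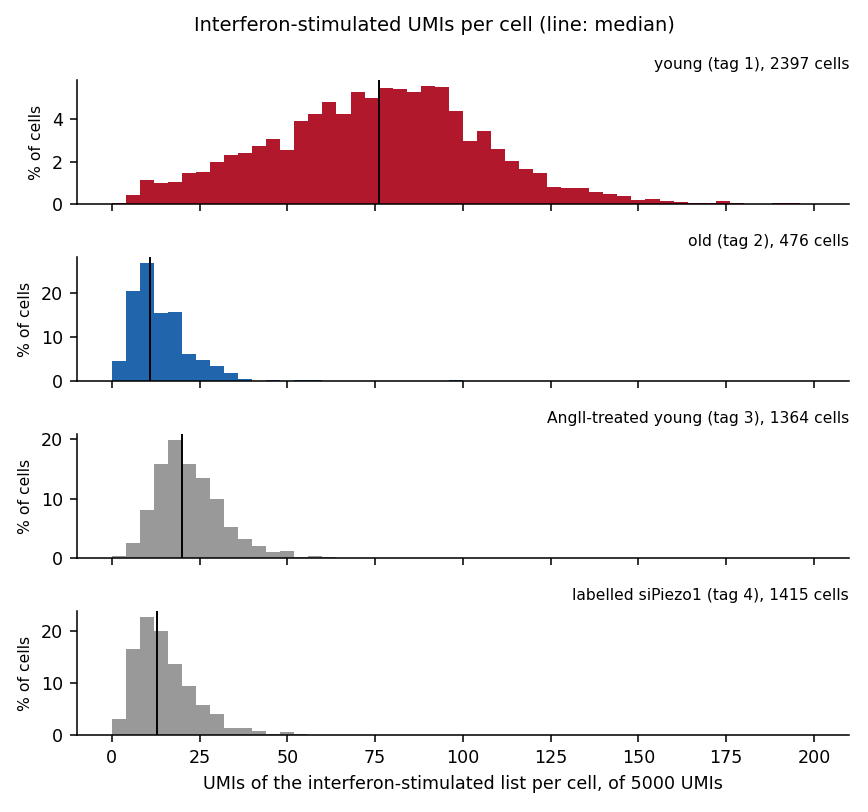
Share of cells (y axis, %) by their number of UMIs from the interferon-stimulated list (x axis, of 5000 UMIs per cell, bins of 4), with a line at each tag's median. Young cells (tag 1) centre on 76 UMIs; the medians of tags 2, 3 and 4 are 11, 20 and 13.

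Genes of antigen presentation on MHC class I followed. Of 20 members, 17 were at least 1.5-fold lower in old (tag 2) cells and none was 1.5-fold higher, with a median log2 ratio of -2.05, and -2.17 and -1.24 among cells with only Y-linked and only Xist UMIs. H2-K1, a classical heavy chain, was at 854 CPM (842 to 865) in young and 101 CPM (92.4 to 109) in old cells, 8.49-fold (7.80 to 9.24) lower. H2-D1, the other classical chain, was at 618 and 117 CPM, 5.28-fold (4.88 to 5.72) lower. B2m, the light chain, differed by less, at 2106 and 796 CPM, 2.65-fold (2.56 to 2.73) lower. Among cells with only Xist the ratios were 0.277 for H2-K1, 0.425 for H2-D1 and 0.720 for B2m, the last within 1.5-fold. The immunoproteasome subunit Psmb8 was at 227 and 10.0 CPM, 22.6-fold (17.4 to 30.0) lower, and the nonclassical H2-Q7 at 102 and 2.69 CPM. H2 genes are near-identical copies, so the share of each is uncertain.

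Ly6 surface antigens were lower as well. Ly6a, the gene of the Sca-1 antigen that marks phenotypically modulated VSMCs (ENSMUSG00000075602, chromosome 15, 74994877 to 74998031, minus strand), was at 1944 CPM (1926 to 1962) in young (tag 1) and 56.5 CPM (50.4 to 63.1) in old (tag 2) cells, 34.4-fold (30.8 to 38.6) lower. It had a UMI in 91.6% of thinned young and 19.7% of thinned old cells. Its ratio was 0.0300 among cells with only Y-linked UMIs and 0.0718 among those with only Xist. Its relative Ly6c1 was at 147 and 4.48 CPM. Ly6a was at 411 CPM in AngII-treated young (tag 3) and 90.03 CPM in the cells labelled siPiezo1 (tag 4).

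Among 17 chemokines and colony-stimulating factors, 10 were at least 1.5-fold lower and 3 at least 1.5-fold higher in old cells. Ccl5, a T cell attractant, was at 709 CPM (699 to 720.1) in young (tag 1) and 12.9 CPM (10.1 to 16.3) in old (tag 2) cells, 55.0-fold (43.6 to 70.3) lower. Cxcl10, also a T cell attractant, was at 227 and 4.30 CPM. Cxcl5, a neutrophil attractant, was at 1219 and 97.2 CPM, 12.5-fold (11.5 to 13.7) lower, and Cxcl1 at 397 and 128 CPM. Ccl2, the main monocyte attractant, did not share this: it was at 3614 and 3564 CPM, a ratio of 0.986 (0.971 to 1.001). Growth factors of myeloid cells went both ways. Csf1 was at 685 and 323 CPM, 2.12-fold lower. Csf3 was at 13.0 and 55.4 CPM, a ratio of 4.27 (3.64 to 5.01). Among cells with only Xist the ratios were 0.722 for Csf1, which is within 1.5-fold, and 1.65 for Csf3. Il11, a fibrosis-linked cytokine, was at 11.2 and 35.1 CPM, a ratio of 3.15 (2.61 to 3.80). It had a UMI in 2.795% of thinned young and 2.94% of thinned old cells (3.56% and 7.04% unthinned), so few cells carried the difference. Among cells with only Y-linked UMIs its ratio was 1.4996 (0.891 to 2.397), an interval that includes 1. Among those with only Xist it was 3.06 (1.986 to 4.917).

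Complement and acute phase genes, taken as 1 list, were also divided. Of 14, 7 were at least 1.5-fold lower and 1 was higher. Factor B (Cfb) was at 60.3 CPM in young and 1.26 CPM in old cells, and Serping1, the C1 inhibitor, at 291 and 42.7 CPM, 6.82-fold (6.00 to 7.80) lower. C3, the central component, was at 116 and 66.9 CPM, 1.74-fold (1.56 to 1.94) lower. The higher member was Clu (clusterin), an extracellular chaperone, at 39.7 CPM (37.2 to 42.3) and 211 CPM (199 to 223), a ratio of 5.32 (4.88 to 5.799) and of 1.83 among cells with only Xist.

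**Figure D3:**
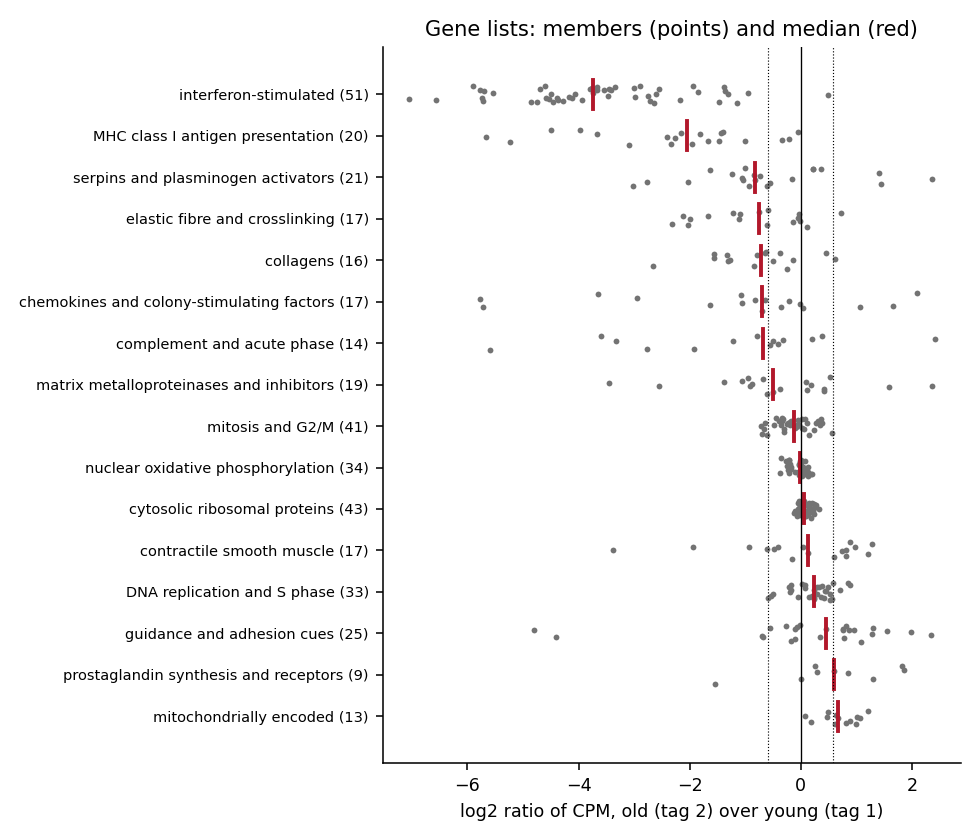
Log2 ratio of CPM, old (tag 2) over young (tag 1), for the members at 10 CPM (grey points) of 16 gene lists, with the number of members in brackets, the list median in red and dotted lines at 1.5-fold. The interferon-stimulated and MHC class I lists have medians of -3.73 and -2.05, while ribosomal and nuclear oxidative phosphorylation genes sit within 1.5-fold of equality.

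Fibrillar collagens and the elastic fibre were lower in old (tag 2) cells. Of 16 collagen genes, 10 were at least 1.5-fold lower and 1 higher, with a median log2 ratio of -0.72. Col3a1 was at 341 CPM (334 to 349) in young (tag 1) and 54.3 CPM (48.4 to 60.8) in old (tag 2) cells, 6.28-fold (5.60 to 7.07) lower. Col1a2 was at 1078 and 363 CPM, 2.97-fold (2.84 to 3.11) lower, and Col1a1 at 541 and 219 CPM, 2.47-fold (2.33 to 2.62) lower. Types I and III collagen thus lay on the same side, as they did in cells with only Y-linked UMIs (ratios of 0.181 for Col3a1 and 0.361 for Col1a2) and in those with only Xist (0.265 and 0.445).

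Of 17 genes for elastic fibres and their crosslinking, 11 were at least 1.5-fold lower and 1 higher (median log2 ratio -0.75). Lox, the lysyl oxidase that crosslinks elastin and collagen, was at 1049 CPM (1036 to 1062) in young (tag 1) and 209.6 CPM (198 to 222) in old (tag 2) cells, 5.00-fold (4.72 to 5.31) lower, and had a UMI in 94.2% of thinned young against 41.4% of thinned old cells. Loxl3, a relative, was at 59.9 and 13.8 CPM. The scaffold genes Mfap5, Fbn1 (fibrillin-1) and Fbln5 (fibulin-5) were 4.002-, 3.18- and 4.11-fold lower, from 530.2, 316 and 65.5 CPM in young cells. Ltbp1, which anchors latent TGF-beta in the matrix, was the higher member at 187 and 309.6 CPM, a ratio of 1.65 (1.56 to 1.75), but of 1.09 among cells with only Xist.

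Other matrix genes were not uniformly lower. Sparc, a collagen-binding glycoprotein, was at 1925 CPM in young and 817 CPM in old cells, 2.36-fold (2.29 to 2.43) lower. Ccn5, a CCN protein that lacks the C-terminal domain of its relatives, had 1736 UMIs in young and 9 in old cells, 44.6-fold (23.4 to 97.7) lower. Tnc (tenascin-C), by contrast, was at 374 and 783 CPM, a ratio of 2.10 (2.02 to 2.17). Fn1 (fibronectin) was at 391 and 489.7 CPM, a ratio of 1.25 (1.20 to 1.31), and Thbs1 (thrombospondin-1) at 1169.5 and 1762 CPM, a ratio of 1.51 (1.47 to 1.54). Among cells with only Xist the ratios were 1.34 for Tnc and 1.26 for Thbs1. That of Fn1 was 1.01 (0.922 to 1.10) there, an interval that includes 1.

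Of 19 metalloproteinases and inhibitors, 2 (Mmp10 and Mmp13) were at least 1.5-fold higher and 9 lower, with a median log2 ratio of -0.50. Mmp10, stromelysin-2 (ENSMUSG00000047562, chromosome 9, 7502352 to 7510240, plus strand), was at 76.4 CPM (72.9 to 79.9) in young (tag 1) and 394 CPM (378 to 411) in old (tag 2) cells, a ratio of 5.16 (4.85 to 5.49). Mmp13, an interstitial collagenase encoded on the same chromosome, was at 18.2 and 54.5 CPM, a ratio of 3.002 (2.58 to 3.48). In both, an AP-1 motif (TGANTCA, the same on both strands) lies close before the start, at 63 bases for Mmp10 and 35 for Mmp13; 8.97% of all genes have such a motif in the same window, and so do 3 of 16 named higher and 5 of 17 named lower genes with a promoter entry. The stretches, with the motif in capitals, are:
Mmp10 (chr9:7502259-7502305, plus strand): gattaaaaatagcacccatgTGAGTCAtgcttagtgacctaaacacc
Mmp13 (chr9:7272459-7272505, plus strand): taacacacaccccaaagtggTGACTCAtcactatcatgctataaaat
The proteoglycan-cutting enzyme Adamts5 went the other way, from 354 to 32.5 CPM (10.9-fold lower), as did the procollagen peptidase Adamts2, from 137 to 23.3 CPM (5.87-fold lower). Timp1, a metalloproteinase inhibitor, was at 4037 and 1945 CPM, 2.08-fold (2.03 to 2.12) lower. The Mmp10 ratio was 8.76 among cells with only Y-linked UMIs and 1.57 among those with only Xist. Mmp13 was at 4.53 and 1.29 in the same classes.

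Serpins and the plasminogen system were mostly lower (13 of 21 genes at least 1.5-fold lower, 3 higher). Serpina3n, an acute phase inhibitor, was at 259 CPM in young and 31.7 CPM in old cells, 8.16-fold (7.03 to 9.53) lower. Serpine2, an inhibitor of thrombin and plasminogen activators, was at 88.8 and 235 CPM, a ratio of 2.65 (2.47 to 2.84), but at 1.16 in cells with only Xist. Plau, urokinase, was low in both, at 3.90 and 19.9 CPM, a ratio of 5.11 (3.85 to 6.79).

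Contractile genes were divided. Of 17 at 10 CPM, 8 were at least 1.5-fold higher and 4 at least 1.5-fold lower, with a median log2 ratio of 0.13. The median was 0.30 in cells with only Y-linked UMIs and -0.04 in those with only Xist. The actin-binding genes Tagln, Tpm1 and Cnn1 were higher in old (tag 2) cells, with Tagln (transgelin) at 415 and 957 CPM, a ratio of 2.30 (2.23 to 2.38), Tpm1 (tropomyosin) at 1117 and 1966 CPM, a ratio of 1.76 (1.72 to 1.80), and Cnn1 (calponin) at 16.9 and 41.1 CPM, a ratio of 2.43 (2.06 to 2.86). Tagln stayed higher within both sex classes (3.19 and 1.54), whereas Cnn1 was at 3.52 in the first and 0.814 in the second and Tpm1 at 2.30 and 1.24. Per cell the differences were smaller. Tagln had a UMI in 56.2% of thinned young and 64.9% of thinned old cells. The 10% of cells with the most Tagln held 51.9% of its UMIs in young and 54.6% in old cells. The whole contractile list gave a median of 20 UMIs per thinned young cell and 22 per thinned old cell. Not all genes of the thin filament were higher, since Tpm2, another tropomyosin, was at 413 and 425 CPM and Lmod1, a leiomodin, at 18.2 and 13.6 CPM.

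The lower members were the small heat shock proteins Hspb7 and Hspb1, Ppp1r14a and Csrp1. Hspb7 was at 26.1 CPM in young and 2.51 CPM in old cells, 10.4-fold (6.15 to 19.1) lower, and Hspb1, which shields actin filaments, at 551 and 289 CPM, 1.91-fold (1.81 to 2.01) lower. Cryab (alpha-B crystallin), a chaperone of the same family, was at 3029 CPM (3007 to 3051) and 827 CPM (803 to 851), 3.66-fold (3.56 to 3.77) lower, with a UMI in 96.0% of thinned young against 59.2% of thinned old cells. Ppp1r14a, the inhibitor of myosin phosphatase, was at 15.05 and 3.94 CPM. Of the transcription factors of phenotype control, Klf4, which represses contractile genes, was at 143 and 71.5 CPM (1.99-fold lower, but a ratio of 0.866 among cells with only Xist), Sox9 at 68.6 and 32.3 CPM (2.12-fold lower) and Mef2a at 84.9 and 136 CPM, a ratio of 1.60 (1.47 to 1.74). Tmsb4x (thymosin beta-4), which binds actin monomers and is among the most abundant RNAs, was at 7601 and 13572 CPM, a ratio of 1.79 (1.77 to 1.80).

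Most of the measured prostaglandin genes were higher. Of 9 genes at 10 CPM, 5 were at least 1.5-fold higher and 1 lower in old (tag 2) cells, against 9.04% and 11.3% of all genes, and the median log2 ratio was 0.60. The enzymes form a chain. Pla2g4a, the phospholipase that frees arachidonic acid from membranes, was at 75.5 CPM (72.1 to 79.1) in young (tag 1) and 187 CPM (176 to 199) in old (tag 2) cells, a ratio of 2.47 (2.29 to 2.67). Of the cyclooxygenases that act next, the inducible Ptgs2 was at 220.4 and 797 CPM and the constitutive Ptgs1 at 167 and 300.5 CPM, a ratio of 1.80 (1.70 to 1.90). Ptges, the synthase that makes prostaglandin E2, was at 89.8 CPM (86.1 to 93.7) and 318 CPM (303 to 333), a ratio of 3.53 (3.32 to 3.77), with a UMI in 27.9% of thinned young and 69.3% of thinned old cells. Ptgis, the prostacyclin synthase, was at 95.4 and 144 CPM, a ratio of 1.51 (1.40 to 1.64). The transporter Slco2a1, which takes prostaglandins up from outside the cell, was the lower member at 85.9 and 29.4 CPM, 2.92-fold (2.49 to 3.44) lower.

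Transcripts beside Ptgs2 were higher with it. The opposite-strand genes Ptgs2os and Ptgs2os2 were at 23.2 and 32.0 CPM in young and 86.1 and 115 CPM in old cells, ratios of 3.71 (3.27 to 4.20) and 3.58 (3.21 to 3.98). By their GENCODE positions neither overlaps Ptgs2 (chromosome 1, 150100031 to 150108227). Ptgs2os ends at 150099963 and Ptgs2os2 starts at 150159043. No source used here states the genome build or whether the counting used strand, so how reads at the border of Ptgs2 and Ptgs2os divide is uncertain. Within cells with only Xist, the ratios were smaller, 1.59 for Ptgs2, 1.57 for Pla2g4a, 1.34 for Ptges, 1.19 for Ptgs1 and 1.13 for Ptgis, with a list median of 0.26 on the log2 scale, and within cells with only Y-linked UMIs they were 4.74, 2.70, 4.97, 1.93 and 1.67.

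The single genes highest in old (tag 2) over young (tag 1) cells, among those past 1.5-fold also under the stricter tag rule, without doublets, after thinning and within both sex classes, were of mixed function. Gzme, a granzyme best known from cytotoxic cells and the placenta (ENSMUSG00000022156, chromosome 14, 56117626 to 56120625, minus strand), was at 11.4 CPM (10.1 to 12.8) and 71.4 CPM (64.5 to 78.7), a ratio of 6.26 (5.35 to 7.33). Mcpt8, a mast cell and basophil protease of the same gene cluster (ENSMUSG00000022157, chromosome 14, 56082166 to 56085273, minus strand), was at 54.9 CPM (51.97 to 57.9) and 326 CPM (311 to 341), a ratio of 5.93 (5.52 to 6.37). Mcpt8 had a UMI in 14.2% of thinned young and 52.5% of thinned old cells. No lymphocyte marker reached 10 CPM in either tag, but the marker lists held no mast cell or basophil list. Granzyme genes are similar in sequence, so the share of Gzme is uncertain.

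Odc1, the first enzyme of polyamine synthesis, was the most abundant of these 25 genes in old cells, at 329 CPM (322 to 336) and 1265 CPM (1236 to 1295), a ratio of 3.85 (3.72 to 3.97). Gap43, a growth cone protein of neurons, was at 38.6 and 185 CPM, a ratio of 4.80 (4.39 to 5.25), and Auts2 at 122 and 379.8 CPM, a ratio of 3.11 (2.94 to 3.29). Among transcription factors, Sox11 was at 46.4 and 135 CPM (ratio 2.91) and Rorb at 14.6 and 54.9 CPM (ratio 3.76). Lrig1, a brake on EGF receptor signalling, was at 41.7 and 105 CPM (ratio 2.51), and Cd24a, a small surface glycoprotein, at 45.5 and 160.3 CPM (ratio 3.52). These differences were unevenly spread over the sex classes: in all 25 genes the ratio was lower among cells with only Xist than over all cells. Because the genes were chosen by their ratio over all cells, a lower ratio in a class follows in part from that choice. The shift was also not particular to them. Of the 299 higher and 512 lower genes at 2-fold over all cells, 33 and 226 were also so in that class. Young levels differed between the classes. Odc1 was at 849 CPM in young cells with only Xist and 258 CPM in those with only Y-linked UMIs, and Gap43 at 90.5 and 26.2 CPM. In old cells with only Xist they were at 1280 and 170 CPM. Whether this goes with sex or with cells of another culture that carry tag 1 was not tested.

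**Figure D4:**
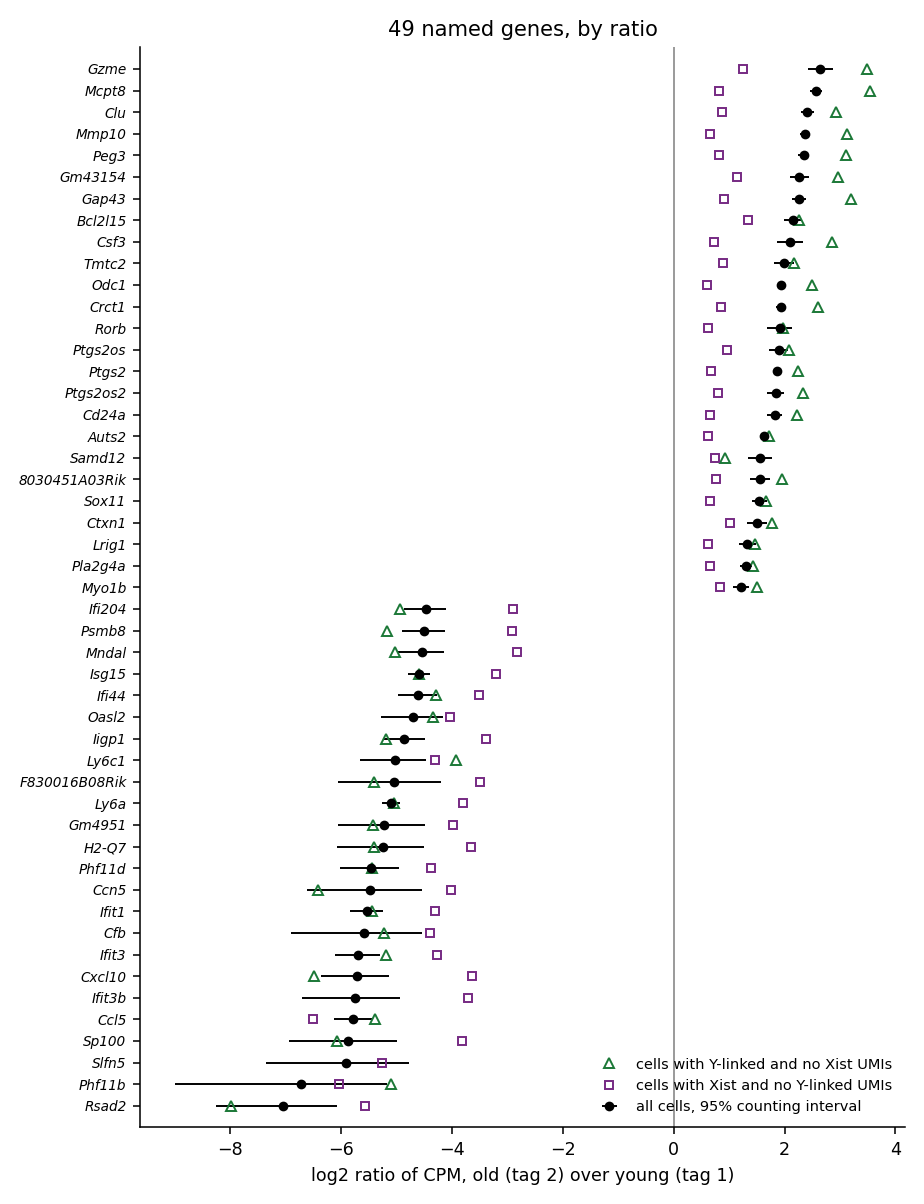
Log2 ratio of CPM, old (tag 2) over young (tag 1), for 49 of the 50 named genes (y axis): all cells with 95% counting intervals (black), cells with only Y-linked UMIs (green triangles) and cells with only Xist UMIs (purple squares). The 25 higher genes, chosen by their ratio over all cells, lie nearer to equality in the Xist class. Ifi206, with no UMI in tag 2, is not drawn, and a class without a UMI has no symbol.

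Axon guidance and adhesion cues, a group that vessels and nerves share, were in part higher in old (tag 2) cells. Of 25 members, 12 were at least 1.5-fold higher and 4 lower, and the median log2 ratio was 0.45 over all cells but -0.11 among cells with only Xist. Sema3a, a secreted repellent, was at 58.0 CPM (55.0 to 61.1) in young (tag 1) and 229 CPM (216 to 242) in old (tag 2) cells, a ratio of 3.94 (3.65 to 4.26), and Sema3c at 86.4 and 211 CPM, a ratio of 2.44 (2.27 to 2.62). Among cells with only Xist, Sema3a was at 1.22 and Sema3c at 1.22. The basement membrane netrin Ntn4 (38.1 and 1.79 CPM, 21.3-fold lower) and the ephrin receptor Epha3 (45.2 and 1.61 CPM, 28.0-fold lower) were the extremes on the other side.

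Secreted growth factors and their binding proteins differed gene by gene. Vegfd, a lymphatic growth factor, was at 248 CPM (241 to 254) in young (tag 1) and 17.0 CPM (13.8 to 20.8) in old (tag 2) cells, 14.5-fold (11.9 to 18.0) lower. The PDGF receptors were lower, with Pdgfrb at 82.3 and 37.8 CPM and Pdgfra at 63.8 and 31.0 CPM. The BMP antagonist Grem1 was higher at 279.8 and 610.5 CPM, a ratio of 2.18 (2.09 to 2.27) and of 1.31 among cells with only Xist, while the activin subunit Inhbb was 4.84-fold (3.69 to 6.49) lower. The secreted Wnt antagonist Sfrp1 was at 323 and 54.1 CPM, 5.96-fold (5.31 to 6.71) lower. Of the IGF-binding proteins, Igfbp3 was at 63.7 and 10.0 CPM and Igfbp6 at 109.6 and 25.1 CPM, both lower. Igfbp5 had the highest ratio of all genes at 10 CPM, 11.5 (8.52 to 15.8), at 2.49 and 28.7 CPM, but a UMI in 1.47% of thinned old cells (2.82% unthinned). Its ratio was 36.6 among cells with only Y-linked UMIs and 1.97 among those with only Xist.

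Peg3, a paternally expressed imprinted gene for a zinc finger protein (ENSMUSG00000002265, chromosome 7, 6703892 to 6730431, minus strand), was at 55.4 CPM (52.5 to 58.5) in young (tag 1) and 281 CPM (267 to 295) in old (tag 2) cells, a ratio of 5.07 (4.71 to 5.45). It had a UMI in 15.6% of thinned young and 49.2% of thinned old cells, and its ratio was 8.58 with only Y-linked and 1.75 with only Xist UMIs.

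Hox genes keep a record of position along the body axis. Of 21 genes on the positional list, 8 were at least 1.5-fold lower and 3 higher. Hoxc6 had 553 UMIs in young (tag 1) and 5 in old (tag 2) cells, at 22.9 and 0.896 CPM, 25.6-fold (10.9 to 79.1) lower. Hoxc8 was at 17.4 and 1.08 CPM, 16.2-fold (7.37 to 44.4) lower. Both were near the young level in AngII-treated young cells (tag 3; 17.1 and 22.2 CPM) and near the old level in the cells labelled siPiezo1 (tag 4; 1.30 and 1.49 CPM). Hoxa7 was at 38.8 and 10.4 CPM and Hoxb6 at 15.6 and 5.20 CPM, while the more anterior Hoxa5 was at 101 and 131 CPM, a ratio of 1.29 (1.19 to 1.41). The T-box factors differed in direction, with Tbx18 3.55-fold (2.48 to 5.25) lower and Tbx3 at a ratio of 2.22 (1.94 to 2.55) (26.0 and 57.9 CPM). Among cells with only Xist, Tbx3 was at a ratio of 1.05 and Tbx18 of 0.389. Hoxa5 was at 1.14 (0.951 to 1.38) there, an interval that includes 1.

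The senescence-associated secretory list, which holds many of the genes above, was split evenly: 12 of 32 genes were at least 1.5-fold higher and 12 lower, with a median log2 ratio of 0.22, and of -0.10 among cells with only Xist. Of 25 genes on a list of senescence genes, CDK inhibitors and D-type cyclins, 1 was higher and 6 were lower. Gdf15, a stress-induced cytokine on that list, was at 60.5 CPM in young and 13.1 CPM in old cells, 4.62-fold (3.65 to 5.93) lower. Of the CDK inhibitors, Cdkn1b and Cdkn1c were 1.91- and 2.84-fold lower, and the others are not reported here. Their ratios were 0.145 and 0.370 among cells with only Y-linked UMIs. Among those with only Xist they were 0.627 (0.389 to 1.02) and 0.705 (0.401 to 1.27), intervals that include 1. Genes of DNA replication (3 of 33 higher, 1 lower) and of mitosis (0 of 41 higher, 5 lower) mostly lay within 1.5-fold. The share of a cell's UMIs in these 2 lists together had a median of 0.136% in young and 0.137% in old cells.

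Of 28 antioxidant and iron genes, 4 were at least 1.5-fold higher and 4 lower, with a median log2 ratio of -0.06, near the shares of all genes. The metallothioneins Mt1 and Mt2, which bind zinc and copper, were at 3479 and 1236 CPM in young (tag 1) and 1426 and 361 CPM in old (tag 2) cells, 2.44- and 3.43-fold lower. Hmox1, heme oxygenase, was at 152 and 299 CPM, a ratio of 1.96 (1.85 to 2.08). Nos2, the inducible nitric oxide synthase, was at 23.7 and 2.33 CPM, 10.2-fold (5.90 to 19.2) lower.

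Housekeeping lists were level. None of 43 cytosolic ribosomal protein genes and none of 34 nuclear genes of oxidative phosphorylation was 1.5-fold higher or lower, with medians of 0.06 and -0.02 on the log2 scale. Genes of the mitochondrial genome were not level. Of these 13, 9 were at least 1.5-fold higher in old (tag 2) cells and none lower (median log2 ratio 0.67), for example mt-Cytb at 1109.6 and 2314 CPM and mt-Nd1 at 665 and 1317 CPM. The mitochondrial share of a cell's UMIs had medians of 1.08% in tag 1, 1.84% in tag 2, 0.224% in tag 3 and 1.86% in tag 4. More mitochondrial RNA per cell and less of other RNA cannot be told apart in such shares.

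Set beside the other cultures, which were not compared in full here, the genes above fell into more than one pattern over the tags. Lox and Cryab were at 1212 and 4592 CPM in AngII-treated young (tag 3) and 174 and 551 CPM in the cells labelled siPiezo1 (tag 4), so that both young cultures were high and both old cultures low. Ifit1 and Ccl5 were at 78.2 and 13.6 CPM in tag 3 and 28.1 and 16.1 CPM in tag 4, with young (tag 1) cells alone high. Mcpt8 and Peg3 were at 71.3 and 47.9 CPM in tag 3 and 325 and 238 CPM in tag 4, low in both young cultures and high in both old ones. Tagln was at 698 and 428 CPM and Ptgs2 at 679.8 and 690.0 CPM in tags 3 and 4. The sex transcripts divided the tags in the same pairs as the age label, with only Y-linked UMIs in 55.5% of tag 3 and 13.8% of tag 4 cells and only Xist in 6.27% and 66.8%.

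**Figure D5:**
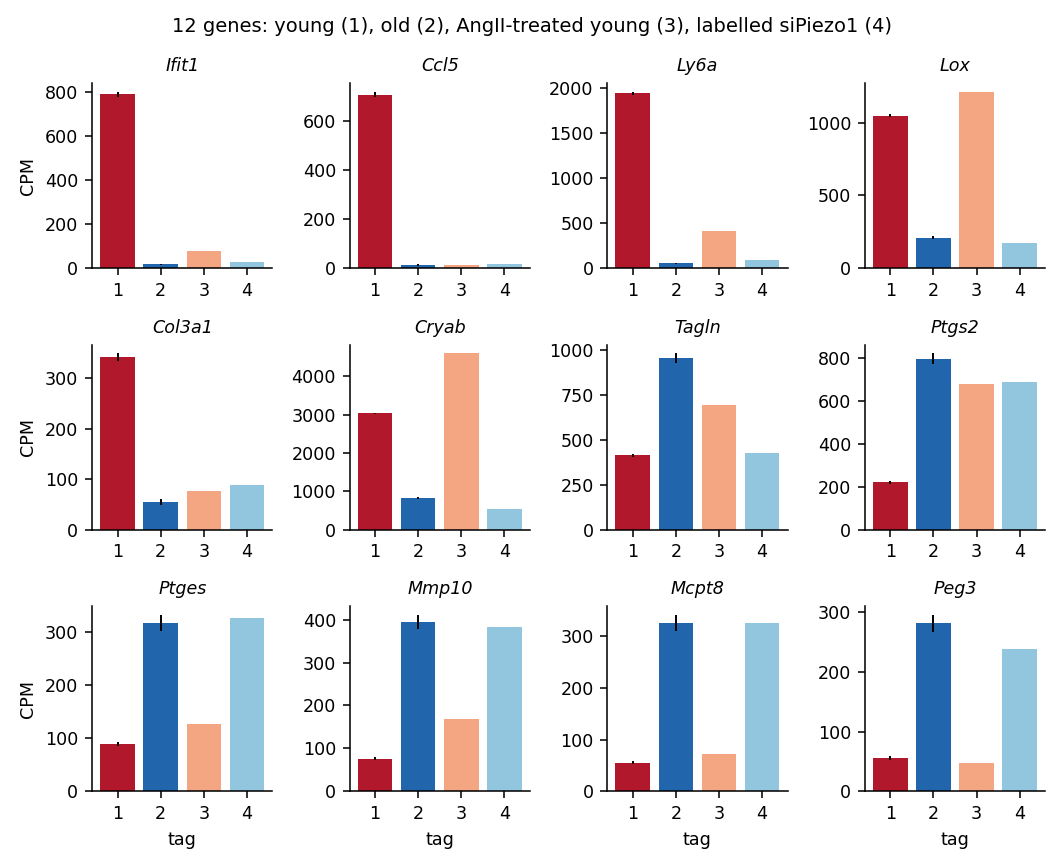
CPM of 12 genes (bars from 0, a separate y axis for each gene) in young (1), old (2), AngII-treated young (3) and siPiezo1-labelled (4) cells, with 95% Poisson counting intervals on tags 1 and 2 only. Lox and Cryab are high in tags 1 and 3, Mcpt8 and Peg3 in tags 2 and 4, and Ifit1, Ccl5 and Col3a1 in tag 1 alone.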

How the data were processed

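The authors hashed 4 cultures with TotalSeq-A antibodies, mixed them and sequenced 1 droplet 3′ library with its hashtag library. They deposited whole-number UMI counts of 32285 genes and 4 tags for 2472397 barcodes, made with Cell Ranger per the labels, with no filter on cells. No source used here gives aligner settings or the genome build. Cells, tags and CPM were computed from these deposited counts as stated in the report, in Python 3.11.15 with SciPy 1.17.1. The cell limit was set at 0.1 times the depth that the 10000 deepest barcodes reach at their 99th percentile. Scrublet (scanpy 1.11.5, expected rate 0.1) marked doublets, and cells were thinned to 5000 UMIs without replacement, which left out 747 young (tag 1) and 21 old (tag 2) cells.

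CPM intervals are exact Poisson and ratio intervals exact binomial (Clopper-Pearson), at 95%. The ratio and its interval were tested on simulated Poisson counts, which hold no added spread between cells or cultures. Gene lists and the tag cutoffs were chosen with earlier results of these data known. Genes named are, first, the 25 highest and 25 lowest ratios among genes of 50 CPM in either tag that passed 1.5-fold in the same direction under the 3-times tag rule, without doublets, after thinning and in both sex classes (40 higher and 210 lower passed); then up to 4 genes per list by size of ratio, genes the study names and the most abundant; 39 further list members, and Tpm2, Lmod1 and the markers of other cell types, were chosen after their values were seen. A gene under 10 CPM in both tags was not counted, and some list members are not reported here. Gene positions came from GENCODE vM21 (GRCm38) by matching identifiers, and promoters from RefSeq (GRCm38.p6; 41 of 51 interferon-stimulated genes matched). Alternatives tried were other tag rules, cell filters, thinning, sex classes, a low cell cycle share, subtraction of free RNA, other scalings and other minimum levels.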

Additional observations from a re-analysis of the deposited data

Results flagged for a closer look

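Ratios of old (tag 2) over young (tag 1) cells pointed opposite ways in the 2 sex classes for 4 genes. In cells with Y-linked and no Xist UMIs against cells with Xist and no Y-linked UMIs, the ratio was 2.66 against 0.741 for Il1rl1, the interleukin 33 receptor, 4.85 against 0.75 for Areg, an EGF receptor ligand, 3.91 against 0.491 for Actg2, enteric smooth muscle actin, and 2.90 against 0.839 for Fst, the activin antagonist follistatin. In each gene the pair of 95% counting intervals lay on opposite sides of 1. These intervals hold no added spread between cells, and 2 of the genes were found in few cells. Over all cells of young (tag 1) and old (tag 2), Actg2 had a UMI in 1.88% and 4.23% and Areg in 5.09% and 17.5%. Il1rl1 had one in 22.996% and 52.9% and Fst in 44.9% and 73.04%. The Actg2 and Areg ratios can therefore rest on a small number of cells, and shares of cells within the classes are not given here. The difference between the classes was not tested, since each is part of 1 culture; the young cells with only Xist numbered 154. In those 154 cells Il1rl1 was at 308 CPM, against 72.9 CPM in the 1700 young cells with only Y-linked UMIs, and Fst at 558 against 139 CPM.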

How the results depend on the processing

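No paired analysis was possible because each group was 1 culture. The counts at 2-fold (299 higher, 3.38%, and 512 lower, 5.79%) moved by more than 1.5 times under some settings. Without called doublets 475 (5.35%) were higher, and in cells with only Y-linked UMIs 456 (5.11%). In cells with only Xist 85 (0.953%) were higher and 281 (3.15%) lower. At 50 CPM the counts were 105 (2.91%) and 244 (6.76%) of 3607 genes. With no minimum they were 2252 (12.7%) and 1591 (8.98%) of 17720 genes. No other alternative moved either count by as much. Ratios of named genes often left their counting intervals when the choice of cells changed. Of 271 such genes, 169 stayed within it under the 3-times tag rule, 117 at 2 times the cutoff and 120 without called doublets. In cells with only Y-linked UMIs 114 of 270 did, and in those with only Xist 43 of 267. After thinning 208 of 271 did, and with free RNA subtracted 239. Directions of the point values turned in cells with only Xist for Cnn1 (0.814), Itpr3 (0.803), Bmp2 (0.749), Ccne2 (0.928), Hist1h1d (0.913), Egr3 (0.998), Fst (0.839), Areg (0.75), Hgf (0.785), Slc7a11 (0.990), Elovl6 (0.982), Rgs5 (0.809), Edn1 (1.01), Cdh13 (0.884), Cd34 (0.913), Il1rl1 (0.741), Ntn1 (0.925), Mylk (0.636), Actg2 (0.491) and the median of the angiotensin and RGS list (-0.68 to 0.01 on the log2 scale). Of these genes only Fst, Areg, Il1rl1 and Actg2 had counting intervals in that class wholly below 1. The intervals of the other genes included 1, so for them the turn is within counting error. List medians nearer to 0 also turned in that class, for guidance (0.45 to -0.11), cadherins (0.28 to -0.11), growth factors (0.24 to -0.09), the secretory list (0.22 to -0.10), contractile genes (0.13 to -0.04) and senescence (-0.10 to 0.02). In cells with only Y-linked UMIs those of DNA replication (0.24 to -0.03) and proteoglycans (-0.14 to 0.17) did, and at a low cell cycle share DNA replication (0.24 to -0.27) and senescence (-0.10 to 0.03); medians within 0.1 of 0 are not listed. Ratios turned at a low cell cycle share for Ccne1 (0.749), Ccne2 (0.740), Hmmr (1.08), Hist1h1b (0.968), Hist1h1d (0.912) and Icam1 (1.06), and at 2 times the tag cutoff for Rad51ap1 (1.05). The cause was not tested. Depth limits genes with few UMIs in tag 2, which held 5577355 UMIs against 24120561.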
